A study of Mus musculus with 13 samples.

Results

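Transcripts of 6 genes of the Ly6/uPAR family, Lynx1, Lypd1, Lypd6, Lypd6b, Ly6h and Ly6e, were examined in excitatory neurons of the mouse claustrum, a thin sheet of neurons between the insular cortex and the striatum. The 6 were listed by name out of 23427 genes in the deposited tables, and all 6 were found in both tables. Cells were chosen by their counts: those with at least 1 count of Snap25, a gene of the presynaptic release machinery, and of Slc17a7, which encodes a vesicular glutamate transporter, were kept. This left 1011 of 1112 cells. Kept cells were then divided by Synpr (synaptoporin, a protein of synaptic vesicles), a marker of the claustrum core, into 438 cells at 200 CPM or more (counts scaled to a common total per cell), called Synpr-high, and 573 cells below it, called Synpr-low. Snap25, Slc17a7 and Synpr thus set the groups, and their own levels are not results. The cells nearest the Synpr threshold had 200 CPM on the lower side (199.95) and 209 CPM on the upper side, and 21 cells lay between 100 and 400 CPM.

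The cells came from 4 mature male C57BL/6 mice and were picked by hand from microdissected slices into the wells of 13 plates. In 3 of the mice, called projection mice, retrobeads in the lateral entorhinal cortex (LEC) and the retrosplenial cortex (RSC) labelled neurons that project there, and LEC-labelled, RSC-labelled and unlabelled cells were harvested. The 4th mouse, called the blindly sampled mouse, carried rAAV2-retro-CAG-GFP from an injection in the anterior cingulate cortex, which guided the dissection, and its cells were taken without regard to that label. The labels call this mouse WT and give the strain of all as B6. A retrograde label marks cells that took up the beads, so unlabelled cells may project to either target.

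Proteins of this family share a compact fold of 3 loops held by disulphide bonds, and most are tethered to the cell surface by a glycosylphosphatidylinositol (GPI) anchor. Several resemble snake toxins that bind nicotinic acetylcholine receptors, and act as endogenous modulators of these ligand-gated channels. Lynx1 lowers the sensitivity of nicotinic receptors to acetylcholine and is known as a brake on plasticity in the visual cortex. Lypd1, also called Lynx2, binds nicotinic receptors too, Lypd6 and Lypd6b have both been described as modulators of these receptors, and Lypd6 is in addition known to promote Wnt signalling. Ly6h is known to reduce receptors containing the Chrna7 subunit at the cell surface, and Ly6e is a widely expressed member known mainly for its effects on the entry of viruses into cells.

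In the GENCODE annotation, Lypd6b and Lypd6 are neighbouring protein-coding genes on chromosome 2. Lynx1, Ly6h and Ly6e lie on chromosome 15, and Lypd1 lies on chromosome 1, where its exons overlap those of Gpr39 on the opposite strand. Whether counting used strand is not given in the sources used here, so counts of Lypd1 cannot be told apart from counts of Gpr39 in that overlap. The longest run of bases shared between transcripts of Lypd6 and Lypd6b was 13, and no pair of members shared more than 15. RefSeq promoter sequences (250 bases before to 50 after a start, build GRCm38.p6) were on hand for 2 of the 6 members, Lypd6 and Lypd1. They are shown because these genes were highest in different classes of neurons, as described further on. The Lypd6 promoter lies at chr2:50066179-50066478 on the plus strand, and the outermost of 3 Lypd1 starts at chr1:125912879-125913178 on the minus strand. Both are written 5′ to 3′, with matches of the CCAAT box (CCAAT on either strand) in capitals.
Lypd6: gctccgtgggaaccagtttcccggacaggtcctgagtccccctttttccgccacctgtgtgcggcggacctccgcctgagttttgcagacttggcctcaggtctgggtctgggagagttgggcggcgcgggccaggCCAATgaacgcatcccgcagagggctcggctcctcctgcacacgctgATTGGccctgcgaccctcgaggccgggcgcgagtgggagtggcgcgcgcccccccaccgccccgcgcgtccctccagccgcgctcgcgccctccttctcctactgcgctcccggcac
Lypd1: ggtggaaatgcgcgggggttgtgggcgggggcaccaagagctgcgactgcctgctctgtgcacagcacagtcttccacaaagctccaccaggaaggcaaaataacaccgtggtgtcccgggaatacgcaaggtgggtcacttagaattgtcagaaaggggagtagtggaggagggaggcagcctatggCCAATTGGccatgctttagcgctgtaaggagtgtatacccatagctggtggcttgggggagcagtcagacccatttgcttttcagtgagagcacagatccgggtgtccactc
Each of these promoters held 2 matches of CCAAT, which for Lypd1 overlap each other on opposite strands, and 37.4% of 32851 mouse promoters hold at least 1. The Lypd6 window held 31 CG dinucleotides and the Lypd1 window 9, against a median of 7 over all promoters. Neither printed window held the TATA box searched (TATAAA, in 13.6% of promoters), the E-box searched (CACGTG, in 7.15%) or, on either strand, the NBRE motif of the family of the core marker Nr4a2 (in 1.51%). The other 2 Lypd1 windows, not printed, held 12 and 17 CG dinucleotides. The middle one (start 125912165) held 1 match of the E-box and 0 of CCAAT, and the innermost 2 of CCAAT and none of the E-box. These are matches of letters in a window and say nothing of which factors bind.

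Counts per cell differed between mice, with a median of 26023 in the blindly sampled mouse and of 138535 to 154262 in the projection mice. Of 368 well barcodes, 343 were used on more than 1 plate, so cells were told apart by plate and barcode together. As a description of the classes, the 6 core markers other than Synpr were all called higher in Synpr-high cells and 6 of 6 shell markers, among them Slc30a3 and Nnat, were called lower. Of all genes tested 8.82% were called. The study had picked Gfra1, Slc30a3, Nnat and Spon1 as subtype markers from these same cells. The lists of core and shell markers were also chosen with earlier results of these data known. None of these calls is therefore an independent check of the classes. Markers of other cell types were summed per mouse. The 6 microglial markers reached at most 9.16 CPM in Synpr-high and 1.54 CPM in Synpr-low sums, and 4 endothelial markers at most 2.40 and 1.01 CPM. Of 7 inhibitory markers 5 were found, and their sum ranged from 0 to 142 CPM in Synpr-high and from 0 to 33.0 CPM in Synpr-low sums, and both Gad1 and Gad2 were found in 4 kept cells. Astrocyte markers summed to 135 to 166 CPM and to 81.4 to 361 CPM, and oligodendrocyte markers to 51.5 to 412 CPM and to 55.9 to 694 CPM, in the same order. The part of these transcripts in the results below was not tested, except that each result was repeated without the 4 cells with both Gad genes, which ended no call of a member.

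The first question was whether the members differ between Synpr-high and Synpr-low neurons. Lypd6 and Lypd6b were many times higher in Synpr-high neurons in each of the 4 mice. Lynx1 and Ly6h lay the other way in each mouse and did not pass the main test, which held no term for the mouse. Both passed under some other fits, among them the one that paired the 2 sums of a mouse. Ly6e and Lypd1 showed no difference that could be told from the spread. Counts were summed over the cells of a class within each mouse, and the sums of the 4 mice were compared. Across 13641 genes tested, 8.82% were called, 611 of them higher and 592 lower in Synpr-high cells, and of the 6 members 2 were called, both higher.

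Lypd6b stood at 176, 180 and 172 CPM in the Synpr-high cells of projection mice 1, 2 and 3 and at 218 CPM in those of the blindly sampled mouse. In Synpr-low cells it stood at 20.3, 24.2, 20.7 and 64.5 CPM in the same order. The groups did not overlap, and the blindly sampled mouse was the highest in both. The means were 186 ± 21.2 CPM and 32.4 ± 21.5 CPM (SD, n = 4), a log2 fold change of 2.55 ± 0.36 (SE), or 5.85-fold (adjusted p = 0.001681, edgeR quasi-likelihood test).

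Lypd6, its neighbour on chromosome 2, stood at 57.6, 35.1, 57.9 and 79.2 CPM in Synpr-high cells and at 8.93, 3.96, 5.26 and 11.2 CPM in Synpr-low cells, in the same order of mice. Again the lowest Synpr-high mouse lay above the highest Synpr-low mouse. The log2 fold change was 3.01 ± 0.36 (SE), or 8.07-fold (adjusted p = 0.000637). On the 12 plates that held both classes, Lypd6 and Lypd6b were each higher in Synpr-high cells on 12 of 12, with no plate the other way.

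**Figure D1:**
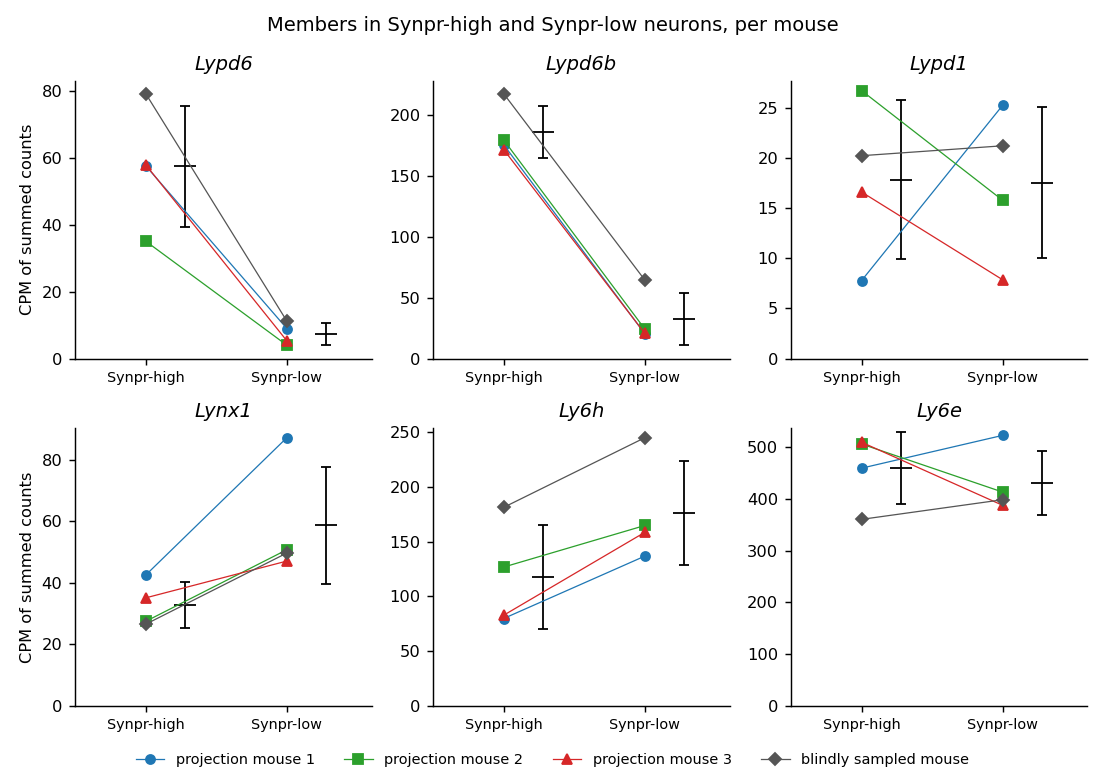
CPM of the summed counts (y axis, from 0) of the 6 members in Synpr-high and Synpr-low neurons (x axis). Each colour and line is 1 mouse and the black bar is the mean ± SD of 4 mice; Lypd6 and Lypd6b drop from Synpr-high to Synpr-low in all 4 mice, Lynx1 and Ly6h lie higher in Synpr-low in all 4, and the lines of Lypd1 and Ly6e cross.

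The share of cells that held the transcripts differed as well. Because depth differed between mice, each cell was thinned to 20000 counts and its class was set again from the thinned counts, which left 927 cells. Lypd6b was then found in 306 of 412 Synpr-high cells, or 74.3% (95% exact Clopper-Pearson interval, 69.8 to 78.4%), and in 96 of 515 Synpr-low cells, or 18.6% (15.4 to 22.3%). Lypd6 was found in 40.8% (36.0 to 45.7%) and 5.05% (3.32 to 7.31%). Without thinning these shares were 84.5% and 25.5% for Lypd6b, and 51.4% and 7.85% for Lypd6. These intervals cover counting error only, not the spread between mice. The 27 harvested cells with no Snap25 count, held no count of either gene, but these were shallow, with a median total of 1640 counts, so that 3 counts over all of them would amount to 26.6 CPM.

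Both transcripts often occurred in one cell. Among thinned Synpr-high cells, 137 held both, 31 held Lypd6 alone, 169 held Lypd6b alone and 75 held neither. Lypd6b was thus seen in 81.5% of the Synpr-high cells with Lypd6 and in 69.3% of those without it. Among Synpr-low cells, 12 held both and 14 held Lypd6 alone, so that Lypd6b was seen in 46.2% of cells with Lypd6 and in 17.2% of the rest. The cells just outside and inside the threshold are given as values only, pooled over mice and with no test. In the 13 cells from 100 to under 200 CPM of Synpr, Lypd6b stood at 40.8 CPM and Lypd6 at 7.65 CPM, and in the 8 cells from 200 to under 400 CPM at 79.4 and 13.4 CPM.

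**Figure D2:**
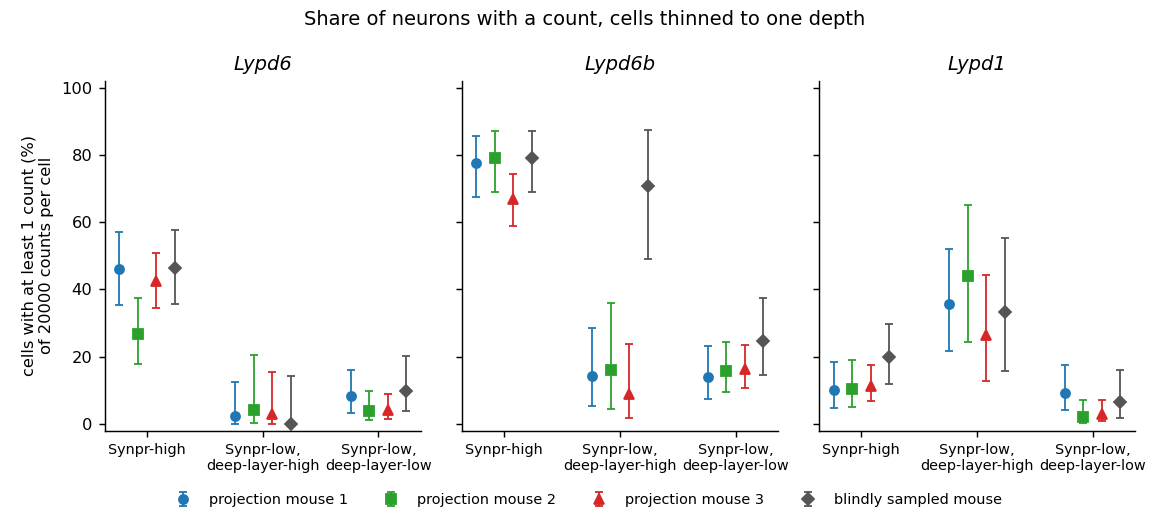
Percentage of cells with at least 1 count (y axis) after thinning each cell to 20000 counts, for Lypd6, Lypd6b and Lypd1 in Synpr-high neurons and in Synpr-low neurons with high or low markers of deep cortical layers (x axis). Points are mice and bars are exact 95% binomial intervals for counting error; Lypd6 and Lypd6b are most often seen in Synpr-high cells, Lypd1 in deep-layer-high cells, and the blindly sampled mouse stands apart for Lypd6b in deep-layer-high cells, at 70.8%.

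Lynx1, the brake on nicotinic signalling, had the opposite order. It stood at 42.5, 27.4, 35.1 and 26.5 CPM in Synpr-high cells and at 87.2, 50.7, 47.1 and 49.7 CPM in Synpr-low cells of projection mice 1, 2 and 3 and the blindly sampled mouse. Each mouse was lower in Synpr-high cells, and the groups did not overlap. The log2 fold change of -0.83 ± 0.24 (SE) did not pass the test across mice (adjusted p = 0.06216). It passed where the 2 sums of an animal were taken as a pair, by a block for the mouse (log2 fold change -0.81, adjusted p = 0.007639). It also passed with DESeq2 (0.01405) and with cells weighted equally in limma (0.03731). Without the plate that held both projection labels, left out after the data were seen, it passed too (0.0491). With sums per plate and the plate as a term it did not (-0.99, adjusted p = 0.09258), and 3 of 12 plates were higher in Synpr-high cells. Over 16 alternatives the adjusted p reached 0.2041.

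Ly6h stood at 79.7, 127, 82.7 and 181 CPM in Synpr-high cells and at 137, 165, 159 and 245 CPM in Synpr-low cells, in the same order of mice. It was lower in Synpr-high cells in 4 of 4 mice and on 11 of 12 plates, but the groups overlapped. Its log2 fold change was -0.59 ± 0.28 (SE, adjusted p = 0.2744). With the sums of each mouse paired by a block it was -0.64 (adjusted p = 0.007243). With sums per plate and the plate as a term it was -0.51 (adjusted p = 0.002156). That last fit counts plates of the same mouse separately, so its p does not measure the spread between mice. Ly6h was found in nearly every neuron, in 97.5% of Synpr-high and 97.4% of Synpr-low cells as deposited, and in 80.6% and 91.6% of thinned cells.

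Ly6e was the evenest of the 6. It ranged from 361 to 510 CPM in Synpr-high sums and from 388 to 523 CPM in Synpr-low sums, with 2 mice higher and 2 lower. Its log2 fold change was 0.09 ± 0.14 (SE, adjusted p = 0.8324). Lypd1 stood at 7.78, 26.8, 16.6 and 20.3 CPM in Synpr-high cells and at 25.3, 15.8, 7.86 and 21.2 CPM in Synpr-low cells, also with 2 mice each way (log2 fold change 0.03 ± 0.43, adjusted p = 0.9887).

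The next comparison split the Synpr-low neurons, since these hold both shell-like claustrum cells and cells with markers of deep cortical layers. A cell was called deep-layer-high where Ctgf, Sla, Foxp2, Fezf2, Tle4, Rprm and Syt6 together reached 200 CPM, which applied to 121 cells, and deep-layer-low otherwise, which applied to 452. These markers set the classes and are not results. The split did not part the cells by shell markers. The 6 shell markers summed to 1000 to 2651 CPM in deep-layer-high and to 2059 to 3482 CPM in deep-layer-low sums, and none was called between them. Lypd1, level between the Synpr classes, was the member that rose here. Of 12832 genes tested 4.16% were called, and Lypd1 alone of the 6 members was called between deep-layer-high and deep-layer-low cells.

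Lypd1 stood at 96.7, 91.1 and 38.3 CPM in the deep-layer-high cells of projection mice 1, 2 and 3 and at 52.8 CPM in those of the blindly sampled mouse. In deep-layer-low cells it stood at 5.46, 1.51, 3.16 and 7.94 CPM. The groups did not overlap, with means of 69.7 ± 28.6 and 4.52 ± 2.80 CPM (SD, n = 4). This was a log2 fold change of 4.05 ± 0.54 (SE), or 16.6-fold (adjusted p = 0.000804), and it passed under every alternative run (adjusted p from 4.1e-14 to 0.01516).

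Synpr-high cells lay between these classes, at 7.82 to 26.8 CPM of Lypd1. Against deep-layer-low cells they were higher in 4 of 4 mice (log2 fold change 2.08 ± 0.51 SE, adjusted p = 0.02724), although the call was lost without projection mouse 1 (adjusted p = 0.0572), 2 (0.2126) or 3 (0.1828). In thinned cells Lypd1 was found in 34.4% of deep-layer-high cells (95% exact interval, 26.1 to 43.4%), 12.6% of Synpr-high cells (9.57 to 16.2%) and 4.62% of deep-layer-low cells (2.76 to 7.20%). Without thinning these shares were 45.5%, 19.9% and 6.86%.

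In that same fit of 12 sums, 5.01% of genes were called between Synpr-high and deep-layer-low cells, and 3 members were called, all higher in Synpr-high cells: Lypd1, Lypd6 (log2 fold change 2.84 ± 0.63, adjusted p = 0.01622) and Lypd6b (2.84 ± 0.71, adjusted p = 0.03396). Lypd6 and Lypd6b thus differed from Synpr-low cells also where the deep-layer cells were set aside. The call of Lypd6 was lost without projection mouse 1 (0.1236) or 3 (0.08897), and that of Lypd6b without projection mouse 1 (0.2316), 2 (0.1977) or 3 (0.0527).

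Lynx1 stood at 181, 54.9, 64.1 and 66.2 CPM in deep-layer-high cells and at 61.7, 50.5, 44.4 and 42.7 CPM in deep-layer-low cells of projection mice 1, 2 and 3 and the blindly sampled mouse. It was higher in 4 of 4 mice, 1 of which stood far above the rest, and did not pass the test (log2 fold change 0.88 ± 0.34 SE, adjusted p = 0.2018). Lypd6b stood at 27.5, 19.9 and 2.40 CPM in the deep-layer-high cells of the projection mice and at 126 CPM in those of the blindly sampled mouse, so that its mean of 44.0 ± 55.8 CPM (SD, n = 4) rests on that mouse. Without it the log2 fold change turned from 0.66 to -0.43, neither of which passed.

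The sum of the astrocyte markers moved with the deep-layer split, but not each marker. Summed, they stood at 369 to 959 CPM in deep-layer-high and at 36.0 to 110 CPM in deep-layer-low cells, mostly through Slc1a2, which encodes a glutamate transporter and which rose (log2 fold change 3.28 ± 0.39 SE, adjusted p = 0.000365). Aqp4, Gfap and Aldh1l1, 3 of the 6 astrocyte markers, had no count in deep-layer-high cells. Only 2 of the 6 were tested, with a median log2 fold change of -1.51, so the one tested beside Slc1a2 was lower in deep-layer-high cells. The part of these transcripts was not tested.

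**Figure D3:**
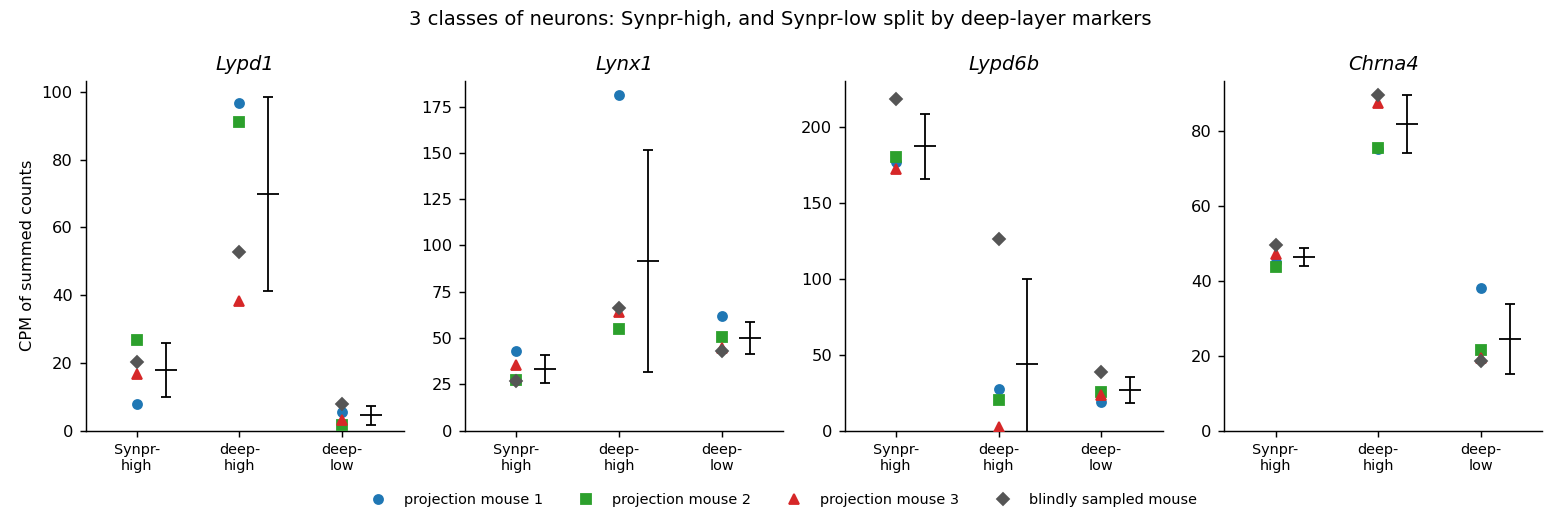
CPM of the summed counts (y axis, from 0, error bars cut there) of Lypd1, Lynx1, Lypd6b and the receptor subunit Chrna4 in Synpr-high neurons and in Synpr-low neurons that were deep-layer-high or deep-layer-low (x axis). Points are mice and bars the mean ± SD of 4; Lypd1, Chrna4 and Lynx1 are highest in deep-layer-high cells in all 4 mice, with Lynx1 of projection mouse 1 far above the others (181 CPM), while Lypd6b is highest in Synpr-high cells in all 4 and, among deep-layer-high sums, stands apart in the blindly sampled mouse (126 CPM).

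The projection comparison asked whether neurons labelled from RSC differ from those labelled from LEC, in the 3 projection mice. Lypd6b was higher in RSC-labelled neurons, and no other member passed. The labels also differed in Synpr class, with 213 of 247 RSC-labelled cells Synpr-high and 241 of 286 LEC-labelled cells Synpr-low. Of 13976 genes tested 3.95% were called, and 1 of the 6 members. Cells of the 2 labels were on separate plates except on 1, so plate and label cannot be told apart elsewhere.

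Lypd6b stood at 145, 170 and 181 CPM in the RSC-labelled cells of projection mice 1, 2 and 3, and at 79.2, 38.1 and 29.2 CPM in their LEC-labelled cells. Unlabelled cells lay at 61.8, 78.2 and 84.6 CPM. Every RSC sum was above every LEC sum, while unlabelled and LEC sums overlapped. This gave a log2 fold change of 1.76 ± 0.31 (SE), or 3.40-fold (adjusted p = 0.01049), and was lost without projection mouse 2 (adjusted p = 0.1789) or projection mouse 3 (0.1527).

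Lypd6 stood at 41.0, 24.5 and 63.0 CPM in RSC-labelled and at 28.2, 10.96 and 7.97 CPM in LEC-labelled cells. It was higher in RSC-labelled cells in 3 of 3 mice, but the groups overlapped and the test was not passed (log2 fold change 1.46 ± 0.49 SE, adjusted p = 0.1428). With cells thinned to equal depth it passed (log2 fold change 2.07, adjusted p = 0.002768), as with DESeq2 (0.02662) and with cells weighted equally (0.005539).

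Ly6h was lower in RSC-labelled cells in 3 of 3 mice, at 65.0, 136 and 86.9 CPM against 134, 199 and 160 CPM (log2 fold change -0.78 ± 0.24 SE, adjusted p = 0.1122). DESeq2 called it (0.02035). Lynx1 at 58.7, 17.6 and 43.8 CPM against 43.7, 43.0 and 35.6 CPM, Lypd1 at 8.56 to 14.6 CPM against 4.37 to 15.1 CPM, and Ly6e at 467 to 517 CPM against 417 to 498 CPM each overlapped, with mice on both sides. Ranked by mean, Lypd1 was highest in unlabelled cells, at 31.2 ± 15.9 CPM (SD, n = 3).

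On the plate that held both labels, from projection mouse 3, the labels could be compared within a plate. Its 34 RSC-labelled cells had 202 CPM of Lypd6b (exact 95% Poisson interval, 192 to 213) and its 44 LEC-labelled cells 33.1 CPM (29.4 to 37.1). Lypd6 stood at 41.2 CPM (36.7 to 46.1) and 11.3 CPM (9.23 to 13.8). These intervals cover counting error over the pooled counts only, not the spread between cells, and would be too narrow if counts were not collapsed to molecules. This is 1 mouse and no test was made.

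Other markers differed with the label. Inhibitory markers summed to 6.80 to 197 CPM in RSC-labelled cells and to 0.16 to 0.89 CPM in LEC-labelled cells, where Gad1, Gad2 and Sst were at 0, and Sst was called (adjusted p = 0.02189, but 0.05088 with a block for the mouse, 0.08971 without projection mouse 1, 0.1545 without projection mouse 3, 0.0511 with 2 counts of Snap25 and Slc17a7 required and 0.05029 without the kept cells with both Gad genes). Without the kept cells with both Gad genes, the log2 fold change of Lypd6b was 1.76 (adjusted p = 0.01065). Astrocyte markers summed to 156 to 203 CPM and 49.0 to 103 CPM, mostly through Slc1a2. It was called higher (adjusted p = 0.02659), though not without projection mouse 2 (0.2538) or 3 (0.1801). Of the 6 astrocyte markers 3 were tested, with a median log2 fold change of -1.65, so most of those tested were lower in RSC-labelled cells. The part of these inhibitory and astrocyte markers was not tested.

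**Figure D4:**
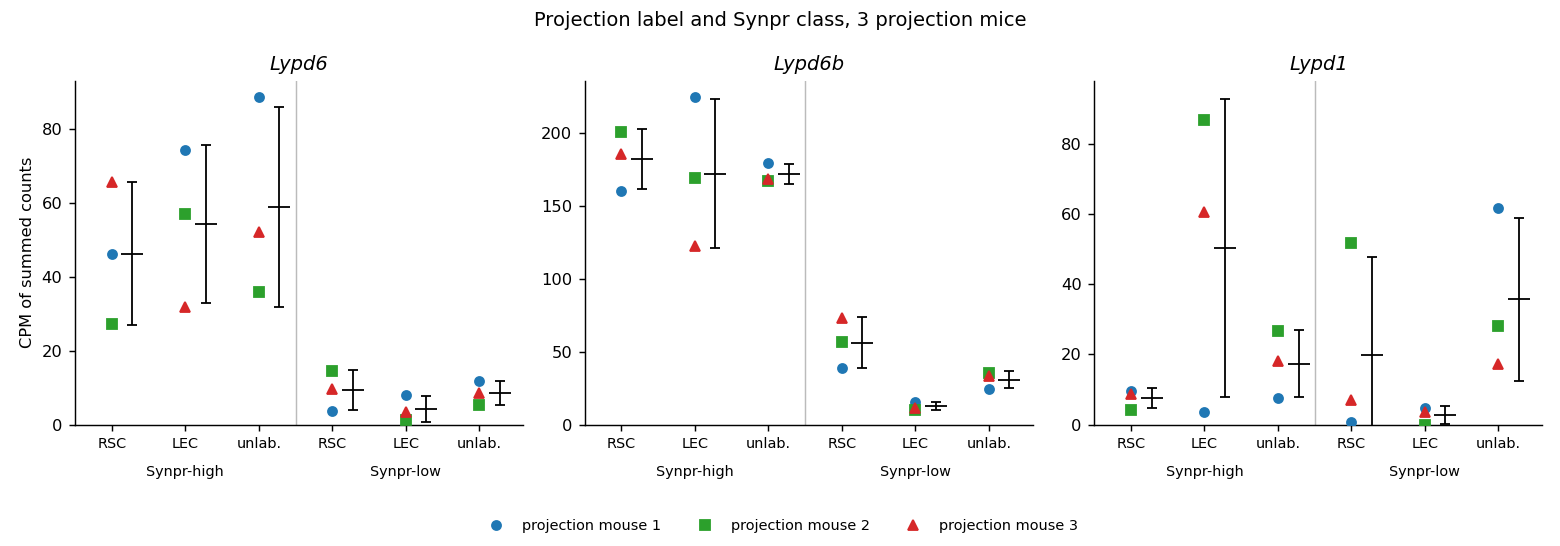
CPM of the summed counts (y axis, from 0) of Lypd6, Lypd6b and Lypd1 by projection label and Synpr class (x axis) in the 3 projection mice. Points are mice and bars the mean ± SD, cut at 0; within Synpr-high cells the labels overlap for Lypd6 and Lypd6b, and within Synpr-low cells all 3 RSC sums of Lypd6b (38.5 to 73.4 CPM) lie above all 3 LEC sums (10.3 to 15.5 CPM).

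The labels were next compared within a Synpr class. Among Synpr-high cells 0% of 13163 genes were called between RSC and LEC by edgeR, with 724 genes at an unadjusted p under 0.05 and 42 called by DESeq2. Lypd6b stood at 160, 201 and 186 CPM in RSC-labelled and at 225, 169 and 122 CPM in LEC-labelled Synpr-high cells, which overlapped (log2 fold change 0.08 ± 0.25 SE). Lypd6, at 46.2, 27.1 and 65.7 CPM against 74.3, 57.0 and 31.9 CPM, overlapped as well (-0.23 ± 0.58).

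Among Synpr-low cells 0.403% of genes were called between the labels, and Lypd6b was 1 of them. It stood at 38.5, 56.4 and 73.4 CPM in RSC-labelled and at 15.5, 10.3 and 11.7 CPM in LEC-labelled Synpr-low cells, with no overlap. Its log2 fold change was 2.16 ± 0.28 (SE), or 4.47-fold (adjusted p = 0.001089). The RSC sums came from only 12, 14 and 8 cells, of which 6, 5 and 4 held a count, and 1 cell gave 64.5%, 35.3% and 50.6% of the counts. With thinned cells the log2 fold change was 1.34 (adjusted p = 0.1587), and it was also lost without projection mouse 2 (0.08531) or 3 (0.1205). In thinned cells Lypd6b was found in 10 of 29 RSC-labelled and 24 of 231 LEC-labelled Synpr-low cells, or 34.5% (95% exact interval, 17.9 to 54.3%) and 10.4% (6.77 to 15.1%). Slc1a2 was called in this comparison too (adjusted p = 0.02488, and 0.2435 or 0.1658 without projection mouse 2 or 3), and its part was not tested. Also called higher in RSC-labelled cells were the core marker Gfra1, Col11a1 and Atp2b2, each lost under at least 1 alternative. These genes were picked for their correlation with Lypd6b over sums that include these, as given further on. Their calls are therefore no independent support. Synpr set the classes, and its levels only describe the split: 9.73 to 25.9 CPM in these RSC sums and 2.62 to 6.22 CPM in the LEC sums. The difference of Lypd6b was thus shared with genes high in Synpr-high cells, and whether core-like cells remained among the Synpr-low cells was not tested.

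The Synpr difference was then taken within each label. Lypd6b was higher in Synpr-high cells of all 3 mice under each label. Its log2 fold change was 3.79 ± 0.28 (SE) in LEC-labelled cells (adjusted p = 2.06e-07, 3.91% of genes called), 1.71 ± 0.27 in RSC-labelled cells (0.001348, 2.66% called) and 2.47 ± 0.27 in unlabelled cells (2.13e-05, 2.60% called). Lypd6 had log2 fold changes of 3.67 ± 0.65 in LEC-labelled (adjusted p = 0.002409), 2.32 ± 0.65 in RSC-labelled (0.0666) and 2.77 ± 0.62 in unlabelled cells (0.01858), higher in 3 of 3 mice each time. These values of Lypd6 rest on few cells. Its RSC-labelled Synpr-low sums held 6, 22 and 11 counts, from 1, 2 and 1 cells of projection mice 1, 2 and 3. In LEC-labelled Synpr-low sums 6, 2 and 2 cells held a count, and 1 cell gave 33.7%, 92.3% and 79.0% of the counts. Lost calls were that of Lypd6b within RSC without projection mouse 2 (adjusted p = 0.06348), that of Lypd6 within LEC without projection mouse 3 (0.06866), and that of Lypd6 within unlabelled cells without projection mouse 1 (0.1194), 2 (0.07519) or 3 (0.2228).

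The interaction tests whether the Synpr difference itself depends on the label. For Lypd6b the difference was smaller in RSC-labelled cells by 2.08 ± 0.37 on the log2 scale, coded as a value of -2.08 (adjusted p = 0.02564, against 0.122% of genes called). The call did not hold with a block for the mouse (adjusted p = 0.05448), in thinned cells (-1.31, adjusted p = 0.4735), with Synpr at 100 CPM (0.09111), with equal weights (0.1217) or without projection mouse 1 (0.08725), 2 (0.2679) or 3 (0.3554). No other member was called, and for Lypd6 the value was -1.36 ± 0.87 (adjusted p = 0.6462). Col11a1 and Gfra1 were called for the interaction in the same direction as Lypd6b, and each call was lost without at least 1 mouse.

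Lypd1 differed most between mice in this finer split. In LEC-labelled Synpr-high cells it stood at 3.59, 86.8 and 60.8 CPM in projection mice 1, 2 and 3, against 4.67, 0 and 3.52 CPM in LEC-labelled Synpr-low cells (log2 fold change 4.18 ± 1.29 SE, adjusted p = 0.08598). In projection mouse 2 it came from 3 of 11 cells, 1 of which gave 72.0% of the counts. DESeq2 (0.02493), the fit with no filter on low counts (0.009881) and thinned cells (0.002201) called it.

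**Figure D5:**
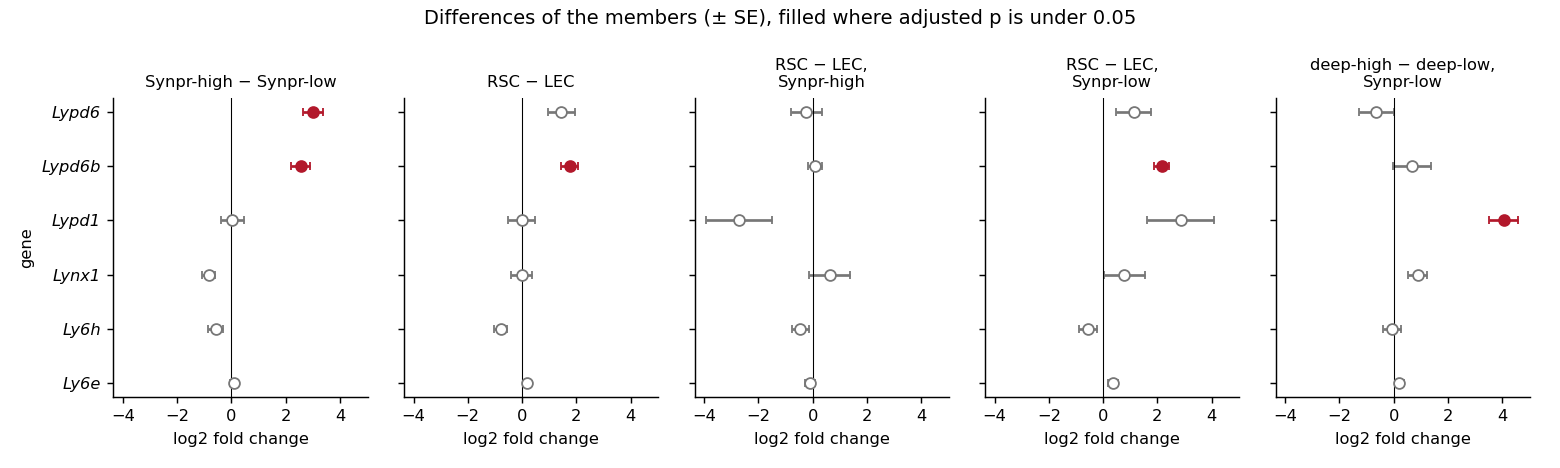
Log2 fold changes ± SE (x axis) of the 6 members (y axis) in 5 comparisons over mice. Filled points passed at an adjusted p of 0.05: Lypd6 and Lypd6b between Synpr classes, Lypd6b between RSC and LEC and again within Synpr-low cells, and Lypd1 between deep-layer classes.

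Genes from lists around the members were read against the shares of all genes called, 8.82% between Synpr classes and 4.16% between deep-layer classes, and at most 2 genes of a list were called. The receptors on which these proteins act were sparse. Of 16 genes for nicotinic subunits 15 were found, but only 4 had enough counts to be tested. Chrna5, an accessory subunit that joins Chrna4 and Chrnb2 in receptors, rose in Synpr-high cells, at 11.1, 16.5, 8.35 and 4.05 CPM against 0.62, 1.63, 2.35 and 0.80 CPM in the same order of mice as above. It was higher in 4 of 4 mice with no overlap (log2 fold change 2.84 ± 0.57 SE, adjusted p = 0.01131), but was not called without projection mouse 1 (0.07851) or 2 (0.08774). The median log2 fold change of the 4 subunits was 0.58, against -0.001 over all genes tested.

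Chrna4, the main agonist-binding subunit of high-affinity receptors in the brain, followed the deep-layer split as Lypd1 did. It stood at 75.1, 75.3, 87.3 and 89.5 CPM in deep-layer-high cells, at 43.7 to 49.4 CPM in Synpr-high cells and at 38.1, 21.6, 19.4 and 18.5 CPM in deep-layer-low cells, with no overlap among the 3 classes. It rose in deep-layer-high cells (log2 fold change 1.73 ± 0.23 SE, adjusted p = 0.000808) and in Synpr-high against deep-layer-low cells (0.91 ± 0.23, adjusted p = 0.03047). The latter was lost without projection mouse 2 (0.1815), 3 (0.2497) or the blindly sampled mouse (0.1251), with deep-layer markers at 400 CPM (0.05359) and with no filter on low counts (0.05157). Chrnb2, its usual partner, at 4.99 to 15.8 CPM in Synpr-high and 9.92 to 19.4 CPM in Synpr-low sums, and Chrna7, at 0.87 to 1.79 and 0 to 1.67 CPM, passed no test between these classes. Between the labels none of the 4 subunits was called.

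Of 4 names listed for receptor chaperones 2 were found. Tmem35, the assembly factor also called NACHO, fell in deep-layer-high cells by 1.13 ± 0.26 on the log2 scale (adjusted p = 0.02493), at 23.9 to 48.3 CPM against 52.4 to 101 CPM in deep-layer-low cells. This call was lost without projection mouse 1 (0.08989) or 2 (0.189) or the blindly sampled mouse (0.08647), and in thinned cells (0.08129). Between Synpr classes and between labels Tmem35 was not called. Of 5 muscarinic receptor genes 4 were tested, and of 7 genes of acetylcholine synthesis, transport and breakdown 1 was tested, and none of these was called in the comparisons of Synpr classes, labels or deep-layer classes.

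Of 43 other Ly6/uPAR genes 18 were found and 5 were tested between Synpr classes. Cd59a, an inhibitor of complement, rose in Synpr-high cells, at 25.9, 23.5, 23.9 and 36.5 CPM against 10.7, 8.34, 13.9 and 19.4 CPM (log2 fold change 1.08 ± 0.28 SE, adjusted p = 0.04026), a call lost without projection mouse 1 (0.1952), 2 (0.1303) or 3 (0.1523), in thinned cells (0.06299) and with 2 counts of both Snap25 and Slc17a7 required (0.06344). Ly6g6e was lower there, at 0 to 0.90 CPM against 3.82, 9.79, 4.59 and 46.2 CPM (adjusted p = 0.02602), and higher in deep-layer-high cells, at 7.58, 61.0, 19.7 and 149 CPM against 0.056 to 3.02 CPM (adjusted p = 0.03416). The first of these calls was lost without projection mouse 1 (0.07311) or 3 (0.07794) or the blindly sampled mouse (0.07667), and the second without any one of the 4 mice (0.07956 to 0.1625), with a block for the mouse (0.06545), in thinned cells (0.195) and with deep-layer markers at 100 CPM (0.07927) or 400 CPM (0.2566). No fold is given for it because 2 of the Synpr-high sums held no count. None of the 5 was called between RSC and LEC.

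Lypd6 is tied to Wnt signalling, and all members need the machinery of GPI anchors. Of 12 Wnt receptor and modulator genes tested 2 were called between Synpr classes, 1 in each direction, against 8.82% of all genes, and their median log2 fold change was -0.29. Kremen1, a receptor that removes Wnt co-receptors from the surface, rose in Synpr-high cells at 23.2 to 42.1 CPM against 2.69 to 14.3 CPM in Synpr-low sums (log2 fold change 2.24 ± 0.48 SE, adjusted p = 0.01498). Fzd7, a Frizzled receptor, was lower, at 0 to 0.25 CPM against 1.86 to 3.88 CPM (adjusted p = 0.01694), and also lower in RSC than in LEC (adjusted p = 0.04796, and 0.05495 with a block for the mouse). Of 10 GPI genes 1 was called between Synpr classes, a share near that of all genes. This was Pgap2, which acts on the lipid part of the anchor and was higher in Synpr-high cells (log2 fold change 0.86 ± 0.18, adjusted p = 0.01328). Between deep-layer classes 1 of 10 was called, Gde1, higher in deep-layer-high cells (0.56 ± 0.12, adjusted p = 0.01592). The median of the 10 between Synpr classes was -0.03. Leaving out 1 mouse ended each of these calls for at least one choice of mouse: for Kremen1 projection mouse 1 (0.06979), 2 (0.09018) or 3 (0.1143), for Fzd7 between Synpr classes projection mouse 1 (0.08481) or 2 (0.08202), for Fzd7 between labels projection mouse 1 (0.1831), 2 (0.2223) or 3 (0.1874), for Pgap2 projection mouse 1 (0.08203), 2 (0.08114) or 3 (0.0863), and for Gde1 projection mouse 1 (0.08756) or 2 (0.1322) or the blindly sampled mouse (0.05208). Pgap2 was also not called with the plate as a term (0.08149), Gde1 with deep-layer markers at 100 CPM (0.1077), and Fzd7 between labels without the shared plate (0.104).

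The genes most like the called members were sought over 20 sums by mouse, projection label and Synpr class, as a description. The sums share mice, and the Synpr split alone produces high values. Lypd6 followed Trem2 (Pearson r = 0.934), Fam84a (0.931), Synpr itself (0.920) and, in 4th place, Lypd6b (0.919). Lypd6b followed the collagen gene Col11a1 (r = 0.961), the core marker Gfra1, a receptor for GDNF-family factors (0.958), and the calcium pump gene Atp2b2 (0.949). Trem2, known from microglia, stood at 35.1 to 41.8 CPM in Synpr-high and 0.14 to 1.14 CPM in Synpr-low sums, where the 6 microglial markers together reached at most 9.16 CPM.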

How the data were processed

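Single-cell RNA sequencing of hand-picked claustrum cells of 4 mice was analysed. The authors deposited raw counts per gene and cell, not normalized, in 1 table for the blindly sampled mouse (16786 genes) and 1 for the projection mice (23216 genes), with the mouse and projection label of each cell. By the study's methods, reads were tagged with cell barcodes and unique molecular identifiers (UMIs) and aligned with STAR, and depth is stated in reads per cell; the submitters' processing notes name NCBIM37 and Seurat. Whether counts were collapsed by UMI, and the use of strand, are not given in the sources used here, so counts may not be independent molecules. A gene absent from 1 table was taken as 0 there. Spike-ins (75 and 89 rows) were left out.

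Members and gene lists were chosen with earlier results of these data known. Genes were named by rule: all members, Chrna4, Chrnb2 and Chrna7, called genes of the receptor, Ly6/uPAR, Wnt and GPI lists, and the 3 genes most correlated with each member called between Synpr classes.

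Counts were summed per mouse and class (sums of at least 5 cells; 8, 9, 18 and 12 sums in the 4 fits, of 1106396 to 27601436 counts) and tested with edgeR 4.0.16 (TMM, filterByExpr, quasi-likelihood test, 2-sided, Benjamini-Hochberg, threshold 0.05). Levels are CPM on TMM-scaled totals. All projection labels were fitted together. Alternatives used DESeq2 1.42.0, limma 3.58.1, other thresholds and left-out mice. R 4.3.3, scipy 1.17.1 and pandas 2.3.3 were used. The code was tested on simulated data. Cells were picked by hand, and doublets were not searched for, so the part of mixed cells was not tested. Sums of a mouse share the animal: across genes, deviations from group means correlated at 0.147 to 0.529 within mice over 4 pairs of Synpr sums (median of other pairs, -0.0953). Synpr sums of a mouse are therefore paired. Between projection labels the same value was -0.0229 to 0.0885 over 9 pairs of a mouse (median of other pairs, -0.0205), which shows little pairing. The main fits held no term for the mouse, and a fit with a block for the mouse was run as well. CPM of different genes were not compared, since transcript length was not accounted for. With 3 or 4 mice the number of animals limits precision.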

Additional observations from a re-analysis of the deposited data

Results flagged for a closer look

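Among 24 groups of 4 mice, 4 had 1 mouse far from the other 3, where chance gives about 1 in 20 for a single group. The groups overlap, since Synpr-low sums hold the deep-layer-high cells of the same mice. The 4 are therefore not independent and cannot be judged against that rate. Lynx1 in projection mouse 1 stood at 87.2 CPM in Synpr-low cells, where the others lay at 47.1 to 50.7 CPM, and at 181 CPM in deep-layer-high cells, where they lay at 54.9 to 66.2 CPM. Lypd6b in the blindly sampled mouse stood at 64.5 CPM in Synpr-low cells, against 20.3 to 24.2 CPM, and Ly6h in its deep-layer-high cells at 305 CPM, against 114 to 134 CPM. That mouse was sequenced to a lower depth, and its genes come from a separate table.

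The Synpr difference of Lypd6b was larger in LEC-labelled than in RSC-labelled neurons by the interaction test (-2.08 on the log2 scale, adjusted p = 0.02564), which rests on RSC-labelled Synpr-low sums of 8 to 14 cells.

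Cells left out of the comparisons for lack of Slc17a7 held strong signals of 2 members. The 4 of them with counts of both Gad1 and Gad2, markers of inhibitory neurons, had 449 CPM of Lypd6 and 393 CPM of Lypd6b, above the 4.65 CPM that 3 counts would give. Of the 290 Lypd6 counts, 188 and 96 came from 2 cells of projection mouse 2, which also held 133 and 88 counts of Lypd6b and 428 and 2408 of Sst. The same 4 cells held no count of Lynx1 or Lypd1.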

How the results depend on the processing

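Of 42 member results followed through the alternatives, 14 were called. These 42 do not include every test of a member and so give no share of members called. Of all genes tested, 0 to 8.82% were called, depending on the comparison. Over 210 repeats of the 14 under alternatives, 185 stayed called in the same direction, 25 were lost and 0 changed sign. Leaving out 1 mouse gave 20 of the 25 losses. Lypd6 and Lypd6b between Synpr classes and Lypd1 between deep-layer classes were called in each repeat. With the mouse as a replicate block the counts of genes called were 1995 between Synpr classes, against 1203, and 970 between Synpr-high and deep-layer-low cells, against 643, and beside the members' calls named in the report it also called Ly6h there (-0.65, adjusted p = 0.0269). DESeq2 called more genes in every comparison: 1993 between Synpr classes, 1227 between labels, 42 and 493 between labels within Synpr-high and Synpr-low, 864, 1052 and 691 between Synpr classes within RSC, LEC and unlabelled cells, 193 for the interaction, and 1051 and 1117 in the deep-layer comparisons. With cells weighted equally the counts were 854 between labels, 1 and 289 within the Synpr classes and 705 within RSC. With no filter on low counts they were 9 and 130 between labels within the Synpr classes and 46 for the interaction. With thinned cells they were 1 between labels within Synpr-high, 6 for the interaction and 339 between deep-layer classes. With Synpr at 100 CPM they were 342 within LEC and 7 for the interaction, and with deep-layer markers at 100 CPM 239 between deep-layer classes. Without the plate of both labels, chosen after seeing the data, they were 5 between labels within Synpr-high and 227 between Synpr classes within RSC. The set without Gad cells, also chosen then, moved no count by more than 1.5 times.

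Leaving out 1 mouse gave 545 to 1581 genes between Synpr classes, 59 to 391 between labels, 0 and 4 to 20 within Synpr-high and Synpr-low, 79 to 221, 179 to 217 and 112 to 150 between Synpr classes within RSC, LEC and unlabelled cells, 0 to 1 for the interaction, and 148 to 428 and 233 to 689 in the deep-layer comparisons. The cause of these shifts was not tested, beyond the smaller number of mice.

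Values that changed sign were uncalled. Lypd1 between Synpr classes was -0.052 and -0.14 with Synpr at 100 and 400 CPM, -0.095 with 2 counts of both genes, -0.02 with equal weights, -0.11 thinned and -0.13 without the shared plate. Between labels it was 0.094 with equal weights and 0.55 without the shared plate, and between Synpr classes within RSC 0.013 with equal weights. Between labels within Synpr-high, Lypd6 was 0.44 with equal weights and 0.15 thinned, and Lypd6b -0.004 with equal weights and -0.26 without the shared plate. Between deep-layer classes, Lypd6 was 0.046 with markers at 100 CPM and Lypd6b -0.45 with equal weights. Leaving out 1 mouse gave -0.295 to 0.52 for Lypd1 (Synpr-high against Synpr-low), -0.008 to 0.198 for Ly6e (Synpr-high against Synpr-low), -0.334 to 0.368 for Lynx1 (RSC against LEC), -0.253 to 0.246 for Lypd1 (RSC against LEC), -0.838 to 0.083 for Lypd6 (RSC against LEC within Synpr-high), -0.132 to 0.409 for Lypd6b (RSC against LEC within Synpr-high), -0.166 to 4.006 for Lypd1 (RSC against LEC within Synpr-low), -2.174 to 1.334 for Lypd1 (Synpr-high against Synpr-low within RSC), -0.433 to 1.052 for Lypd6b (deep-layer-high against deep-layer-low among Synpr-low) and -0.394 to 0.043 for Ly6h (deep-layer-high against deep-layer-low among Synpr-low). Only 4 of 15 nicotinic subunits found had enough counts to be tested between Synpr classes, and the RSC-labelled Synpr-low sums held 8 to 14 cells.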

Other observations

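Within deep-layer-high cells, Lypd6b went with Ctgf, a marker of layer 6b, in a split made after the values were seen. In the blindly sampled mouse, 23 deep-layer-high cells with a Ctgf count had 140 CPM of Lypd6b, and 19 of them held a count, while 8 cells without Ctgf had 17.5 CPM. In projection mouse 1, 5 cells with Ctgf had 136 CPM and 32 without it 7.55 CPM, and in projection mouse 2, 7 cells had 55.5 CPM and 17 cells 5.35 CPM. These rest on few cells: with Ctgf, 2 of 5 and 3 of 7 cells held a count, and without it 3 of 32 and 4 of 17. Projection mouse 3 had only 2 cells with Ctgf, at 2.98 CPM, against 2.38 CPM in 27 others. The blindly sampled mouse had the most cells with Ctgf, and was the mouse with high Lypd6b in this class. A link between these was not tested.

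Lypd1 lay the other way in 3 mice and not in the other. It stood at 19.3 CPM with Ctgf and 233 CPM without it in the blindly sampled mouse, at 37.9 and 111 CPM in projection mouse 1, at 0 and 42.9 CPM in projection mouse 3, and at 142 and 70.3 CPM in projection mouse 2. Ctgf was 1 of the 7 genes that defined the class, and no test was made.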
